A study of Homo sapiens with 27 samples.

Results

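Gene deserts are long stretches of a chromosome in which an annotation places no gene. The deserts described here were 75 autosomal intervals covering 42.64 Mb. They were the gaps of 500 kb or more between neighbouring genes of any class in the RefSeq gene table of GRCh38, with 50 kb removed at each end. Chromosomes 18 and 19 were not used, and the other 20 autosomes held 100 such gaps. Of these, 25 were dropped because a stretch of 100 kb or more held no marked site in any library of DNA treated outside cells. The kept intervals gave 398 windows of 100 kb, against 28654 windows over chromosomes 1 to 22. The comparator was 14969 merged protein-coding gene bodies of the same 20 chromosomes, 1149 Mb in all.

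The libraries came from O6-MeG-seq, which captures DNA fragments with O6-methylguanine by an antibody and marks the modified base where a polymerase stalls. The cells were LN-229, a human glioblastoma line, either the line transfected with the repair gene MGMT or its transfection control, called wild type (WT) by the labels. Each line received 1 mM temozolomide (TMZ) or 1% DMSO as the solvent, either 1 time or 3 times with 4 h between additions, and extraction followed 24 h after the first of them. This gave 8 groups of 3 biological replicates. A further 3 libraries held purified DNA treated with 1 mM TMZ in the tube (naked DNA), with replicate 1 from non-transfected cells, replicate 2 from the WT line and replicate 3 from the MGMT line. The labels do not say whether either line is a single clone, and the MGMT level was not measured in these data.

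TMZ breaks down in water to a methylating species that reacts with bases in DNA, and methylation of guanine at the O6 position is the lesion held responsible for much of its toxicity. MGMT is a suicide enzyme: it transfers the methyl group to one of its own cysteines and is not regenerated. Gene deserts in human cells are typically rich in A and T, replicate late in S phase and lie in compact chromatin near the nuclear lamina, so they differ from gene bodies both in how many guanines they offer and in their chromatin. Naked DNA carries the first difference and not the second.

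The deposited lists held distinct marked positions, each with a base and a score, and sites with a score of 30 or more were used. On chromosomes 1 to 22 there were 594592 to 12443865 such sites per library. Inside the deserts a library held 1634 to 9898 sites at G under solvent, 6815 to 50493 under TMZ and 47515 to 84690 in naked DNA. Counting error is therefore largest in the solvent controls. Libraries also fell into 5 sets that shared sites at other bases more often than the rest did, by a cutoff chosen with the values known, and these sets are used below as batches. Naked DNA replicate 1 and all 4 replicate 1 libraries of cells with 1 addition made up set 1. Within it, the library labelled MGMT solvent control, replicate 1, stood apart: 37.0% of its desert sites were at G, against 17.3% to 19.6% in the other 5 MGMT solvent controls and 32.1% in its TMZ-treated partner. The main comparisons of libraries that use it are given with and without it.

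The intervals measured 400.7 to 2057 kb after trimming, with a median of 502.2 kb, and lay on 16 chromosomes. Of their 150 flanking genes, 67 were pseudogenes, 55 were long non-coding RNA genes and 19 were protein-coding. The longest interval lay at chr2:92085128-94142530 between IGKV1OR2-2 and BMS1P23, in the centromere region. It passed the rule, but naked DNA marked only 0.0773 positions per kb there, against a median of 7.15 over the 75 intervals. The intervals at chr3:90476357-91324235 (LOC124909499 to LOC101930420) and chr16:34483115-34928721 (LOC102724523 to LINC02184) were also sparse, with 1.07 and 2.84 positions per kb. These 3 intervals are left out wherever 72 intervals are named. The next longest were chr4:178867381-180045497 (1178 kb, LOC105377563 to LOC124900818), chr6:102504067-103485048 (981 kb, TARDBPP5 to LOC105377916) and chr1:194538206-195431483 (893.3 kb, RNU6-983P to LOC107985458). The list of the 8 longest was completed by chr6:94623260-95454121 (830.9 kb, LOC105377901 to CYCSP17), chr8:77526332-78347171 (820.8 kb, LOC102724874 to LOC105375911) and chr4:59884168-60700566 (816.4 kb, RNU6-1325P to LINC02496). Both long chromosome 6 deserts were below the median in naked DNA, with 4.25 and 4.01 positions per kb, and stay among the 72.

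Deserts held fewer marked guanines per Mb than gene bodies in every one of the 27 libraries. In naked DNA the log2 ratio of G sites per Mb in deserts to those in gene bodies was -0.72, -0.79 and -0.83 in replicates 1 to 3, a mean of -0.78 ± 0.06 (SD, n = 3). This is a density 0.582 times that of gene bodies. Sites at A, C and T, which are not the lesion the assay is made for, were also sparser in deserts in naked DNA. They were at 0.702 times the gene-body density, again with the sparse intervals included. No genome sequence was used, so base composition was not measured. The share of C among marked non-G sites, pooled over all libraries, stands in for it below and had a median of 17.8% in desert windows and 20.4% in the 6600 windows that were at least 90% genic. It is not a property of sequence alone: in the same deserts it was 11.7% in naked DNA, 17.9% under TMZ and 19.9% under solvent (means over libraries). G sites fell almost equally on both strands of the deserts, with 48.2% to 51.7% on the plus strand per library. To set cells against this baseline, each library's log2 ratio is given below minus the naked DNA mean, so that 0 is the ratio of DNA treated without chromatin.

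After 3 additions of TMZ the desert-to-gene ratio of G sites in cells lay in the range of naked DNA or just below it. WT libraries gave 0.03, -0.02 and -0.08 (mean -0.02 ± 0.06, SD, n = 3) and MGMT libraries gave 0.05, -0.04 and -0.05 (mean -0.01 ± 0.05, SD, n = 3), and both groups overlapped naked DNA (0.06, -0.01 and -0.05). After 1 addition the values were higher, at 0.05, 0.31 and 0.08 in WT and 0.04, 0.22 and 0.13 in MGMT cells, and replicate 2 was the highest of both groups. Over both numbers of additions the mean of WT cells under TMZ was 0.06 above naked DNA (exact permutation test, 6 against 3 libraries, p = 0.56, adjusted p = 0.684). The mean of MGMT cells was 0.06 above it as well (exact permutation test, p = 0.417, adjusted p = 0.573). The smallest p this design allows is 0.0119. With no minimum score the differences from naked DNA were 0.12 in WT and 0.22 in MGMT cells, and neither passed the threshold. In set 1, the one set with both kinds, the differences were -0.01 and -0.02 from 1 library each. Subtraction of the solvent background turned both differences, to -0.02 in WT and to -0.10 in MGMT cells. The second then passed the threshold (adjusted p = 0.0374, exact permutation test), but it cannot be read. For MGMT replicate 1 after 1 addition the scaled background came from the library that stood apart. It exceeded the treated density in deserts and in gene bodies, so the value of -0.13 there is a ratio of negative densities. Nothing was subtracted from naked DNA. With sites at A, C and T of the same library as the reference, in the log2 odds of a site being at G in deserts over gene bodies, WT cells under TMZ were 0.04 below naked DNA (exact permutation test, p = 0.0119, the smallest possible, adjusted p = 0.0417 over 7 comparisons on this scale), and the difference passed the threshold. MGMT cells were 0.07 below it on that scale (exact permutation test, p = 0.0833, adjusted p = 0.146). In set 1 these odds differences were -0.02 and -0.09 from 1 library each. The reference of the odds was itself not alike: A made up 53.6% of non-G desert sites in naked DNA, 38.8% under TMZ in cells and 35.8% under solvent. Whether this moves the odds, here and below, was not tested.

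In solvent controls the desert-to-gene ratio was higher than in naked DNA, for the few marked guanines and for sites at other bases alike. All naked DNA was treated with TMZ and none with solvent. This comparison therefore differs in drug as well as in chromatin, which cannot be told apart. WT solvent controls gave 0.11, 0.50 and 0.38 after 1 addition and 0.33, 0.42 and 0.38 after 3, and MGMT controls gave -0.002, 0.47 and 0.42 and then 0.43, 0.36 and 0.40. Of these 12 libraries 11 lay above all 3 naked DNA libraries, and the lowest 2 were those of replicate 1 after 1 addition, both in set 1. The mean over solvent controls was 0.35 ± 0.15 (SD, n = 12), a 1.27-fold higher desert-to-gene ratio than in naked DNA (exact permutation test, p = 0.0044, adjusted p = 0.00967; smallest possible p 0.0022). Sites at A, C and T averaged 0.33 ± 0.09 above naked DNA (SD, n = 12). On the odds scale solvent controls differed from naked DNA by 0.02 (exact permutation test, p = 0.721, adjusted p = 0.841), so no excess particular to guanines was detected. Without the MGMT library that stood apart the difference in G sites was 0.38 and that in the odds 0.04 (adjusted p = 0.237, exact permutation test). Against all intergenic sequence in place of gene bodies the difference in G sites was 0.23. Within set 1 the difference in G sites was -0.002, from 2 libraries against 1, and no other set held both naked DNA and solvent controls. Leaving out replicate 2 or replicate 3 gave 0.30 and ended the call (adjusted p = 0.0978 in both, exact permutation test).

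**Figure D1:**
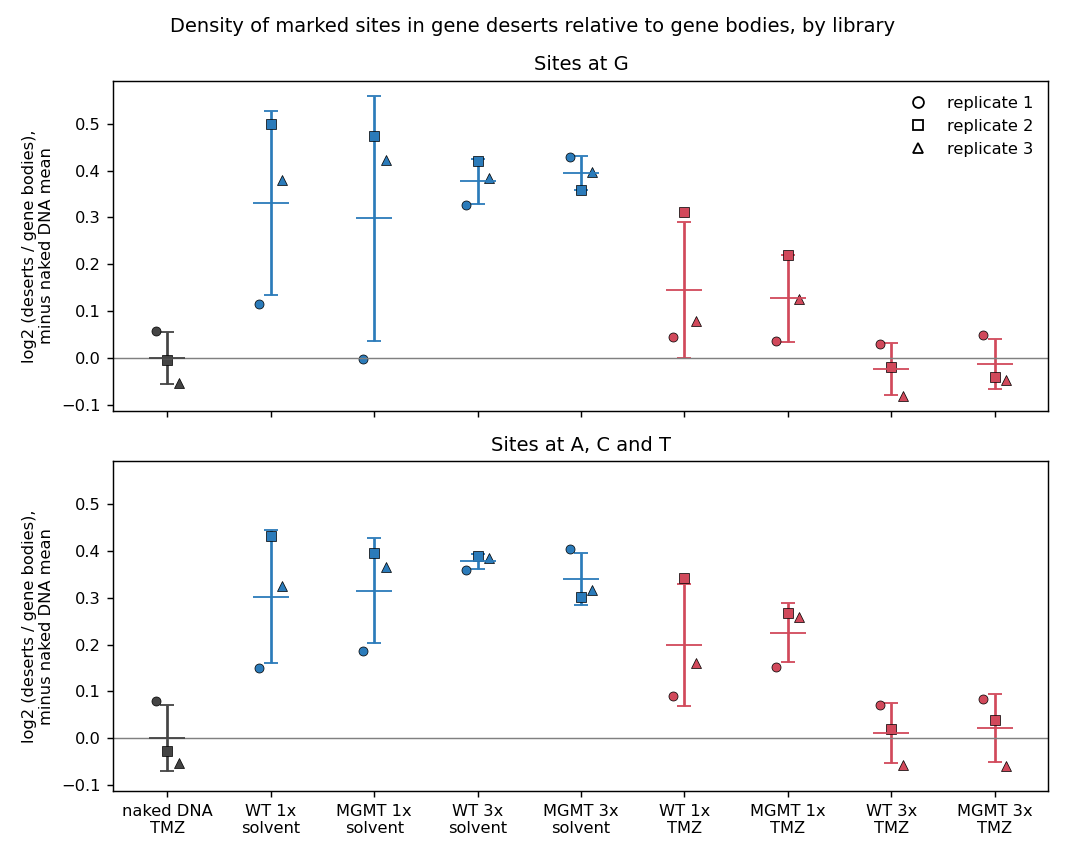
Each point is a library, and the vertical axis is the log2 ratio of site density in deserts to that in protein-coding gene bodies minus the naked DNA mean, for G sites (top) and sites at A, C and T (bottom). Bars give the mean and SD of 3 replicates; solvent controls (blue) lie mostly between 0.3 and 0.5, except replicate 1 after 1 addition, while TMZ libraries after 3 additions (red, right) lie around 0.

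The comparison of TMZ with solvent asked whether the desert-to-gene ratio of G sites differed with treatment. It cannot show lesions moving into or out of deserts, since marked guanines under solvent need not be the lesion. On average 20.1% of desert sites were at G under solvent, against 46.6% under TMZ. The desert-to-gene ratio of G sites was lower under TMZ, at 0.06 ± 0.11 (SD, n = 12) against 0.35 ± 0.15 (SD, n = 12). The difference was -0.29 on the log2 scale, or a ratio 1.22-fold lower, and 11 of 12 same-numbered libraries were lower under TMZ (permutation within genotype and number of additions, p = 0.000438, adjusted p = 0.00131). It was -0.29 in each line, -0.32 without the MGMT library that stood apart and -0.18 with intergenic sequence as the comparator. Without replicate 3 it was -0.25 and missed the threshold (adjusted p = 0.0764, permutation test). The size differed between sets: it was -0.02 in set 1, -0.28 in set 2 and -0.39 in set 3. Within-set values of TMZ against solvent, here and below, are plain means over lines and numbers of additions. Set 1 held cells with 1 addition only, and sets 2 and 3 held both. In set 3 the 6 TMZ libraries were more often of 3 additions than the 4 solvent libraries. Set and number of additions thus cannot be fully told apart. By number of additions the size was -0.18 ± 0.14 (SD, n = 6 pairs) after 1 and -0.40 ± 0.06 (SD, n = 6 pairs) after 3, a difference of 0.23 (exact permutation test of the difference, p = 0.01, adjusted p = 0.04). These pairs join same-numbered libraries of TMZ and solvent, which correlated over 1 Mb bins at -0.145 to 0.593, above 0.1 in 6 of 12. The SDs and the test of the difference thus rest on a pairing that these values bear out only in part. Without the pair of the library that stood apart the difference between 1 and 3 additions was 0.18 (p = 0.01, exact permutation test), and without set 1 it was 0.15 (p = 0.03, exact permutation test). Extraction was timed from the first addition, so time since the last one differed as well and cannot be told apart from their number. Under TMZ alone, libraries after 3 additions were 0.16 lower than those after 1 (exact permutation test, p = 0.01, adjusted p = 0.0183), with -0.23 in set 2 and -0.15 in set 3. With the replicate number as a block this difference missed the threshold (adjusted p = 0.0833, exact sign flips, smallest possible p 0.0312). That block has little basis here. Same-numbered libraries of 1 and 3 additions correlated over 1 Mb bins at -0.304 to 0.365, above 0.1 in 1 of 6. For replicates 1 and 2 they were also of different sets. The difference between 3 and 1 additions was -0.05 against gene windows matched on the C share (adjusted p = 0.00917, exact permutation test). With intervals of 1 Mb or more (only 3, with 20 of their 40 windows in the centromeric chromosome 2 interval) it was -0.13 and missed the threshold (adjusted p = 0.0629, exact permutation test). With no minimum score it was -0.37 (adjusted p = 0.00917, exact permutation test). On the odds scale it went the other way, at 0.04 (exact permutation test, p = 0.08, adjusted p = 0.146). Without replicate 1, 2 or 3 the difference in density was -0.23, -0.08 and -0.15, designs in which an exact permutation test cannot go below p = 0.0556.

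Sites at A, C and T were also relatively sparser in deserts under TMZ than under solvent. Their desert-to-gene ratio averaged 0.11 ± 0.13 with TMZ and 0.33 ± 0.09 with solvent (SD over 12 libraries each). The difference was -0.22, and 12 of 12 same-numbered libraries were lower under TMZ (permutation test, p = 0.000475, adjusted p = 0.00131). Without the MGMT library that stood apart it was -0.23. Within sets 1, 2 and 3 it was -0.05, -0.21 and -0.28, and without replicate 3 it was -0.19 (adjusted p = 0.0764, permutation test). The base A made up 35.8% ± 1.2 of these sites under solvent, 38.8% ± 2.38 under TMZ (SD, n = 12 each, with overlapping ranges) and 53.6% ± 3.37 in naked DNA (SD, n = 3), which was not tested. The log2 odds of a site being at G in deserts over gene bodies averaged -0.33 ± 0.04 with TMZ and -0.25 ± 0.08 with solvent (SD over 12 libraries each). It fell by 0.07 (permutation test, p = 0.00876, adjusted p = 0.0417), and by 0.09 without the MGMT library that stood apart (permutation test, adjusted p = 0.00035). Within sets 1, 2 and 3 the odds difference was 0.03, -0.07 and -0.11. Measured against gene windows with the same share of C among non-G sites, the difference between TMZ and solvent in G sites was -0.11 and that of solvent controls from naked DNA was 0.10. Both values are smaller than those against all gene bodies and passed the threshold, and without the library that stood apart they were -0.12 and 0.10.

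Treatment raised the share of desert sites that were at G. It was 46.6% ± 10.9 (SD, n = 12) under TMZ, with a lowest, median and highest library of 28.6%, 47.7% and 59.7%, and 20.1% ± 5.74 (SD, n = 12) under solvent, with 16.8%, 17.7% and 37.0%. The difference was 26.5 percentage points (permutation test, p = 3.75e-05, adjusted p = 0.000412), and 11 of 12 same-numbered pairs were higher under TMZ. The exception was MGMT replicate 1 after 1 addition, the pair with the library that stood apart. Without that library the difference was 28.0 points, and without replicate 3 it was 23.3 points (adjusted p = 0.0509, permutation test). Sets 1, 2 and 3 gave 5.54, 23.3 and 35.5 points. The rise was 15.4 points after 1 addition against 37.6 after 3 (exact permutation test of the difference, p = 0.005, the smallest it can give, adjusted p = 0.03). Without the pair of the library that stood apart it was 19.5 against 37.6 points (exact permutation test of the difference, p = 0.01). Naked DNA reached 64.1% to 67.1%. By the Wilson method the 95% interval of a single library extended at most 1.02 points to either side, counting error alone.

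In all 27 libraries the share at G was lower in deserts than in gene bodies. The gap was -5.39 ± 0.69 points (SD, n = 12) under TMZ, -3.03 ± 1.6 points (SD, n = 12) under solvent and -4.11 ± 0.26 points (SD, n = 3) in naked DNA. The gap was 2.36 points larger under TMZ (permutation test, p = 0.000463, adjusted p = 0.00131; 11 of 12 pairs), with -2.40 in set 2, -3.19 in set 3 and, in the other direction, 0.15 in set 1. Without the MGMT library that stood apart the difference was -2.78 points, and without replicate 3 it was -1.93 (adjusted p = 0.0764, permutation test).

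**Figure D2:**
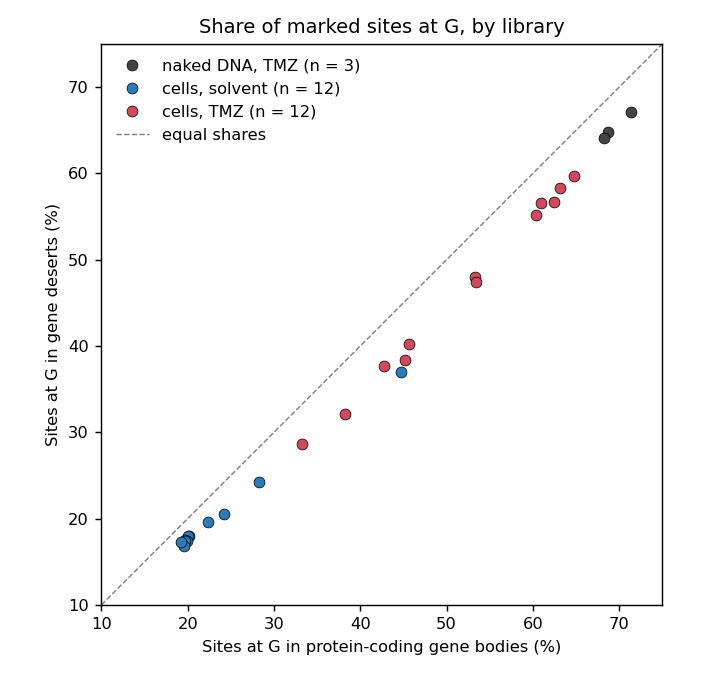
Each point is a library, with the share of its sites at G in protein-coding gene bodies on the horizontal axis and in gene deserts on the vertical axis, both in percent. Every library lies below the dashed line of equal shares; the blue point at 37.0% is the MGMT solvent control that stood apart.

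No difference between MGMT-transfected and WT cells was detected in how G sites were divided between deserts and gene bodies. Under TMZ the MGMT line had a desert-to-gene ratio of 0.06 ± 0.10 and the WT line one of 0.06 ± 0.14 (SD over 6 libraries each). The MGMT line minus the WT line was -0.003, with p = 0.95 before and after adjustment by the exact permutation test. The differences of same-numbered libraries ran from -0.09 to 0.05, 3 in each direction, and the within-set values were -0.01, -0.04 and 0.02 in sets 1 to 3. Under solvent this difference was -0.008 (exact permutation test, p = 0.895, adjusted p = 0.95), with -0.12, 0.04, -0.01 and 0.01 in sets 1 to 4, and 0.06 without the MGMT library that stood apart. The share of desert sites at G was lower in MGMT cells under TMZ in 6 of 6 same-numbered pairs. WT libraries gave 40.2%, 37.7% and 47.4% after 1 addition and 55.1%, 59.7% and 58.3% after 3, and MGMT libraries gave 32.1%, 28.6% and 38.4% and then 48.0%, 56.7% and 56.6%. The lines overlap after both numbers of additions, since the highest MGMT library lies above the lowest WT library in each. The mean difference of -6.35 points had p = 0.035 and missed the threshold after adjustment (adjusted p = 0.055, exact permutation test), and it was -8.14, -8.12 and -4.57 points in sets 1, 2 and 3. Both lines were equally represented in each set, and with libraries exchanged only within a set, a test added after the values were seen, it passed the threshold (exact permutation test, p = 0.0208, the smallest it can give, adjusted p = 0.0327).

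Window by window, TMZ against solvent was tested in WT cells after 3 additions with limma on the number of G sites per 100 kb. Of the 398 desert windows, 372 had enough sites to be tested, and 310 of them were lower under TMZ and 62 higher. The median log2 fold change was -0.33 in desert windows, -0.03 in gene windows and -0.04 over all 26754 windows tested. Since that last median is below 0, lower windows were the more common over all windows too. After adjustment over all windows 16 desert windows were lower and 0 were higher (limma, adjusted p at or below 0.05). In the same limma fit 104 desert windows had an unadjusted p under 0.05. Here and below, counts by unadjusted p were made in desert windows only, so the share over all windows is not known. Over all windows 1.34% were called lower and 0.976% higher. The 16 windows lay in 16 intervals, and in each the replicates of TMZ and solvent did not overlap. Overlap was not counted over all windows, and in windows already called it is no separate support for the calls. The call count was not stable. It was 16, 1 and 0 without replicate 1, 2 or 3 (4.3%, 0.269% and 0% of desert windows, against 2.61%, 0.236% and 0.00748% of all), and 3 with limma-trend (0.806% of desert windows, against 0.766% of all). It was higher, at 33, with only the groups compared in the fit (8.87% against 5.45%) and, at 44, with no filter on low windows (11.1% against 4.82%). The largest change was in the sparse chromosome 16 interval, at chr16:34583115-34683114, with 18.5, 11.4 and 11.1 G sites per 1000000 of the library under TMZ and 30.1, 57.5 and 26.2 under solvent (a log2 fold change of -1.65 with SE 0.31, adjusted p = 0.00239 by limma). Next was chr3:90476357-90576356, in the sparse chromosome 3 interval, with a log2 fold change of -1.15 (SE 0.29, limma adjusted p = 0.0245). The 3 solvent libraries held 267126, 532764 and 267228 autosomal G sites, so solvent counts per window were smaller than the values per 1000000. On simulated data this comparison recovered 31% of changed windows, and 15 of its 77 calls were false. Of these 15, 9 lay in windows with few solvent sites. The adjusted p of the chromosome 16 and chromosome 3 windows is to be read with that limit. The largest change outside the sparse intervals was at chr1:102256690-102356689, between LOC124904645 and LOC105378874. It held 16.0, 17.7 and 20.7 G sites per 1000000 under TMZ and 41.3, 33.4 and 44.9 under solvent, a log2 fold change of -1.12 (SE 0.23, limma adjusted p = 0.00593).

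Against naked DNA, no desert window was called in WT cells after 3 additions. Of the 372 windows 0 were called in either direction, as were 0% of all windows in each direction. In limma 5 desert windows had an unadjusted p under 0.05, a count not made over all windows. The limma-trend fit also called 0. The desert windows had a median log2 fold change of -0.02, and 90% of them lay between -0.24 and 0.18.

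**Figure D3:**
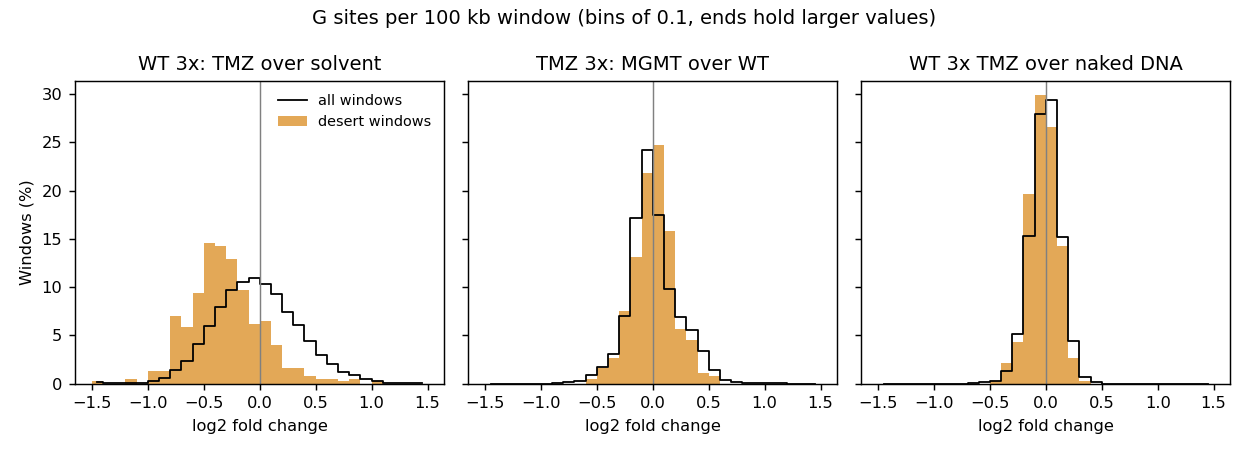
The horizontal axis is the log2 fold change of G sites per 100 kb window and the vertical axis the percent of windows, for 3 comparisons; bars are the 372 desert windows and the line is all 26754 windows tested. The desert windows are shifted to the left for TMZ over solvent (median -0.33 against -0.04), and lie over the line for naked DNA.

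The 72 well-covered intervals lay around 0 in WT cells after 3 additions of TMZ. Their mean values relative to gene bodies and naked DNA ran from -0.19 to 0.12 with a median of -0.02. The SD between interval means was 0.07. The spread between replicates gives 0.04 for such means from these libraries, 0.06 from the naked DNA reference and 0.07 from both. Against that joint spread most intervals were not resolved from each other. The naked DNA libraries are of 3 cell sources, so their part can hold differences between the sources as well as replicate error. This applies to the values from replicates below too. MGMT cells after 3 additions had a wider spread, from -0.39 to 0.38 with a median of -0.01 and an SD between intervals of 0.13 against 0.08 from replicates. After 1 addition of TMZ the intervals were mostly above 0, with a median of 0.14 and 64 of 72 above 0 in WT cells and a median of 0.13 and 63 of 72 in MGMT cells. In WT solvent controls after 3 additions the intervals had a median of 0.38 and ran from -0.16 to 0.75, with 70 above 0, and the SD between intervals was 0.18 against 0.13 from replicates. The mean was lower under TMZ than under solvent in 70 of 72 intervals in WT cells and in 71 of 72 in MGMT cells after 3 additions. The intervals share libraries and the gene-body density of each library, so counts of intervals are not independent support. The same holds for the shared libraries in the counts of chromosomes. No such counts were made outside deserts. By chromosome, with the 3 sparse intervals included, solvent controls were above naked DNA on 16 of 16 chromosomes in all 4 solvent groups. Both lines after 1 addition of TMZ were as well. After 3 additions of TMZ WT cells ran from -0.12 to 0.04, with 3 chromosomes above 0, and MGMT cells from -0.10 to 0.14, with 8 above 0. The WT low and the MGMT high were both chromosome 16, whose only interval is a sparse one. On the other chromosomes the WT low was -0.10 and the MGMT high 0.06. Without the library that stood apart, MGMT solvent controls after 1 addition were still above naked DNA on 16 of 16 chromosomes.

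**Figure D4:**
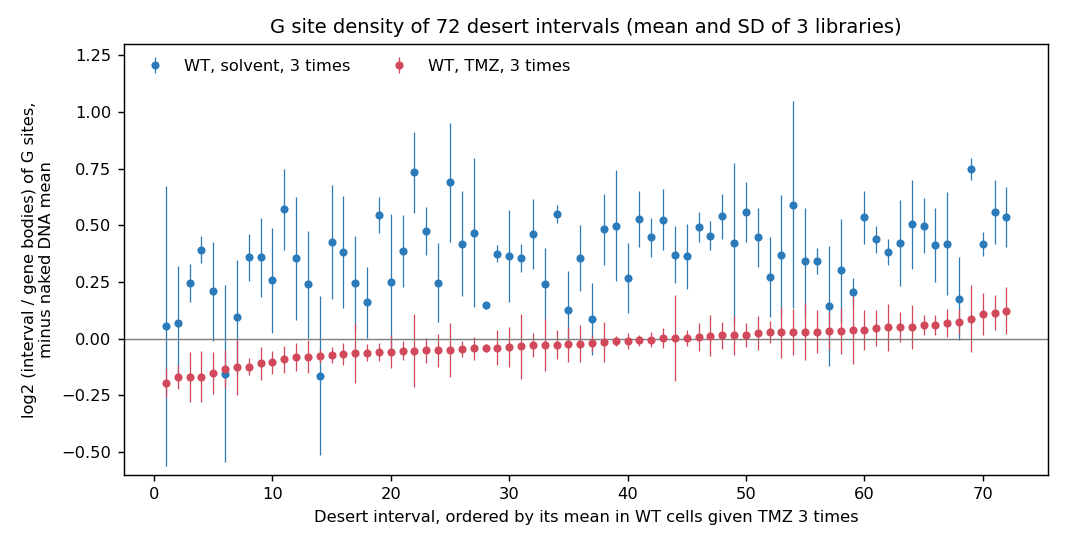
Each of the 72 well-covered desert intervals is drawn 2 times, for WT cells given solvent (blue) and TMZ (red) 3 times, as the mean and SD of 3 libraries; the vertical axis is the log2 density of G sites relative to gene bodies, minus the naked DNA mean. The order follows the red points, which run from -0.19 to 0.12, while 70 blue points lie above 0.

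The intervals at the ends of the order are named as a description, since that value chose them. Among intervals with at least 5 windows the highest in WT cells after 3 additions of TMZ was chr7:109045061-109713680 (BUB3P1 to LOC100421901), at 0.22, 0.13 and 0.01 in replicates 1 to 3. That value turns on 1 library of the reference: naked DNA gave 0.19, 0.12 and -0.32 there, the last from the MGMT line, and against naked DNA replicates 1 and 2 alone the mean of 0.12 became -0.03 and its place among 39 such intervals went from 1 to 17. It was followed by chr7:85539339-86166584 (LINC00972 to SOCS5P1) at 0.11 ± 0.08 (SD, n = 3), chr4:166154458-166683383 at 0.08 ± 0.06 and the long chromosome 4 desert RNU6-1325P to LINC02496 at 0.06 ± 0.04. The third of these lies between TLL1, a metalloprotease gene, and SPOCK3, a proteoglycan gene. The lowest was the centromeric chromosome 2 interval at -0.25 ± 0.37 (SD, n = 3), which had as few as 29 G sites in a naked DNA library. Then came chr2:59744870-60309215 (RNA5SP94 to MIR4432HG) at -0.17 ± 0.11, chr11:42311932-43013630 (LOC105376642 to LOC100533710) at -0.15 ± 0.09 and the long chromosome 1 desert RNU6-983P to LOC107985458 at -0.12 ± 0.04. The longest well-covered desert, on chromosome 4 (LOC105377563 to LOC124900818), gave 0.06, -0.05 and -0.12, and its replicates lie on both sides of 0. The chromosome 8 interval gave 0.08, 0.01 and -0.04. The long chromosome 6 deserts gave 0.05 ± 0.08 (TARDBPP5 to LOC105377916) and -0.05 ± 0.04 (LOC105377901 to CYCSP17). Against naked DNA replicates 1 and 2 alone, the other three of the highest were at 0.04, 0.06 and 0.02, in the order given, and the RNA5SP94 to MIR4432HG interval was at -0.07 in place of -0.17. The TARDBPP5 to LOC105377916 interval then turned from 0.05 to -0.01, and the chromosome 8 interval from 0.02 to -0.007.

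Desert windows near to genes and far from them had similar values after TMZ. In WT cells after 3 additions the value was -0.02 ± 0.06 (SD, n = 3) in the 150 windows that began 50 to 150 kb from the nearest gene, -0.03 ± 0.05 in the 150 windows at 150 to 250 kb and -0.02 ± 0.05 in the 98 windows farther away. The same classes gave 0.37 ± 0.08, 0.39 ± 0.02 and 0.37 ± 0.05 (SD, n = 3) in WT solvent controls. Intervals over 700 kb gave -0.03 ± 0.05 and those up to 500 kb -0.03 ± 0.07 under TMZ. In WT solvent controls after 3 additions the values differed between classes of C share and of flanks. The tercile of windows with the highest C share gave 0.29 ± 0.04 (SD, n = 3, 0.253 to 0.329), below the middle tercile at 0.42 ± 0.06 and the lowest at 0.41 ± 0.05 (0.361 to 0.482 and 0.35 to 0.449). The 16 intervals beside a protein-coding gene gave 0.24 ± 0.07 and the 59 others 0.41 ± 0.04 (0.155 to 0.302 against 0.369 to 0.451). After 1 addition the ranges of WT solvent controls overlapped, at 0.055 to 0.417 in the highest and 0.113 to 0.512 in the lowest tercile and at 0.049 to 0.409 and 0.132 to 0.523 in the flank classes. The same 2 flank classes were -0.04 ± 0.04 and -0.02 ± 0.06 in WT cells after 3 additions of TMZ. These classes share libraries and were not tested.

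Single deserts were also set side by side between the lines. After 3 additions of TMZ, limma called 2 of 372 desert windows higher in MGMT than in WT cells and 0 lower, against 1.3% higher and 0.867% lower over all windows. Both lay side by side in the interval chr2:35775157-36249358, between MRPL50P1 and RPL21P36. The window chr2:35975157-36075156 had 43.5, 36.0 and 50.7 G sites per 1000000 in MGMT and 24.5, 33.5 and 29.1 in WT cells (a log2 fold change of 0.57 with SE 0.16, adjusted p = 0.04 by limma). The window chr2:36075157-36175156 had 44.6, 38.3 and 33.1 against 26.5, 24.5 and 27.5 (log2 fold change 0.55, SE 0.16, limma adjusted p = 0.0433). In the same limma fit 37 desert windows had an unadjusted p under 0.05, again a count not made over all windows. Neither the number nor the direction of these calls was stable: limma-trend called 0 (4 with an unadjusted p under 0.05), 0 were called without replicate 2 or without replicate 3, 1 was higher and 2 were lower without replicate 1, and 28 were higher and 16 lower with only the groups compared in the fit, where 21.4% of all windows were called.

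The whole MRPL50P1 to RPL21P36 interval was higher in the MGMT line by 0.46 under TMZ, by 0.49 under solvent after 3 additions and by 0.42 in naked DNA (replicate 3, of the MGMT line, against the mean of the others). These values come from different libraries. Outside the naming rule, and chosen after their values were seen, the well-covered intervals past a difference of 0.25 in either direction under TMZ were counted. There were 7, of which 4 were higher and 3 lower in the MGMT line. All 7 had the same sign in naked DNA and 6 had it under solvent. The largest negative difference was in the chromosome 7 desert BUB3P1 to LOC100421901, at -0.38 under TMZ, -0.40 under solvent and -0.47 in naked DNA. Beside CRBN, the gene of the cereblon ubiquitin ligase receptor, the interval chr3:3229718-3650813 gave -0.38, -0.33 and -0.38. Across the 72 intervals Pearson's r of the TMZ difference was 0.58 with the solvent difference and 0.77 with the naked DNA difference, a description over intervals that share libraries within each difference. The number of copies of these intervals in either line was not measured here. With 1 naked DNA library of the MGMT line there is no replicate of that value.

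**Figure D5:**
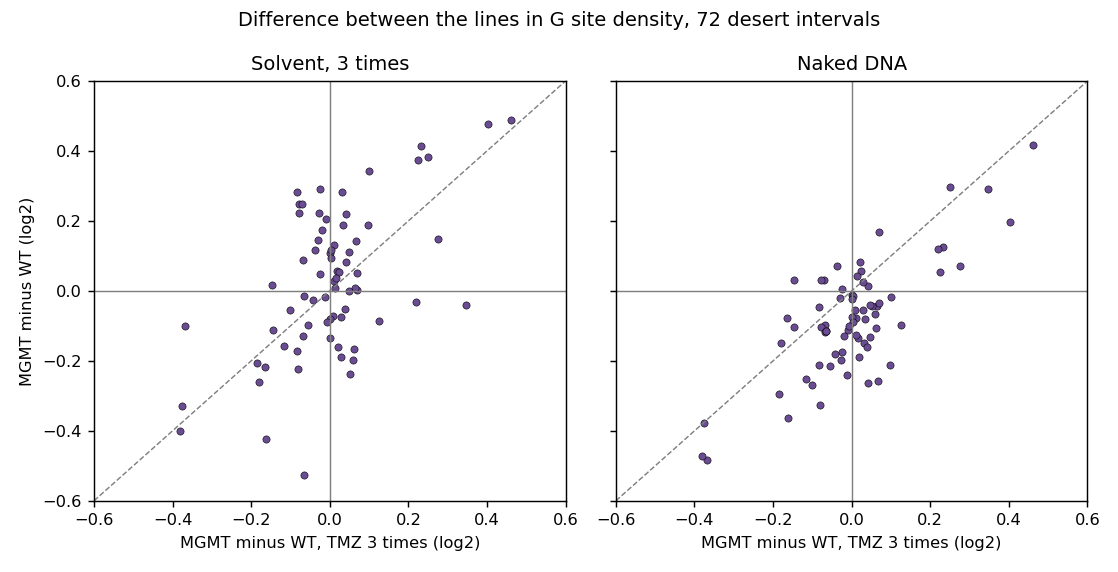
Each point is 1 of the 72 well-covered desert intervals; the horizontal axis is the log2 difference in G site density between MGMT and WT cells after 3 additions of TMZ, and the vertical axis is the same difference under solvent (left) or in naked DNA (right). The dashed line marks equal differences; the intervals past 0.25 on the horizontal axis lie on the same side of 0 in naked DNA in 7 of 7 cases.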

How the data were processed

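Each library is a deposited list, without header, of chromosome, position, strand, base and a whole-number score. Per the submitters' processing notes the build was GRCh38 and the tools included Bowtie2 2.3.5.1, GATK 4.2.0.0, SAMtools 1.12 and bedtools 2.29.2; the role of each, and duplicate handling, are not given in the sources used here. The deposited score ran from 0 to 42 and its meaning is not stated by the authors; 30 was the minimum used. The deposited positions count from 0: in naked DNA replicate 1 the bases of 70818 of 70818 sites within RefSeq promoter sequences were equal to the GRCh38 base. Coordinates are printed counted from 1. Each site counted 1 time.

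Site densities were taken over desert windows and merged gene bodies. The 11 single-value comparisons used exact two-sided permutation tests, within strata where stated, adjusted together by Benjamini-Hochberg. Windows of 100 kb on chromosomes 1 to 22 with at least 10 G sites in at least 3 libraries were fitted with limma 3.58.1 (voom, R 4.3.3) over 9 group means, after a test on simulated data, in which recovery was poor and false calls frequent for TMZ against solvent. Named were the 8 longest intervals, the 4 highest and 4 lowest with at least 5 windows, and at most 3 called windows per direction. Replicate numbers were checked for pairing over 1 Mb bins. Alternatives covered score, replicates, trimming, interval length, comparator, C share, reference, background subtraction, filter, library size and test. The odds scale, exchange within sharing sets, gene bodies matched by chromosome and values without the library that stood apart, set 1 or naked DNA replicate 3 were added after the values were seen. Leaving out the 3 sparse intervals and judging empty stretches over sites of any score were not planned either. The members and lists were chosen with earlier results of these data known. No genome sequence was used, so no desert sequence is shown.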

Additional observations from a re-analysis of the deposited data

Results flagged for a closer look

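In 16 groups of 6 libraries checked for a library far from the others, 3 values stood out, all of MGMT solvent control replicate 1 after 1 addition, and chance gives such a value in about 1 in 20 groups. Its log2 desert-to-gene ratio was -0.00192, where the other 5 MGMT solvent controls had 0.36 to 0.47. Its share of desert sites at G was 37.0%, and its gap between deserts and gene bodies was -7.68 points. The 3 values come from 1 library and are not independent.

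The effect of TMZ differed between 1 and 3 additions in 3 of the 4 measures tested (exact permutation tests, adjusted over all 12 tests of differences between effects). For G sites the effect after 1 addition minus that after 3 was 0.23 (adjusted p = 0.04), for non-G sites it was 0.25 (adjusted p = 0.03), and for the share at G it was -22.2 points (adjusted p = 0.03). Without set 1 these were 0.15, 0.22 and -17.2 points, with exact permutation p of 0.03, 0.01 and 0.01. The number of additions cannot be told apart from the time between the last one and extraction.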

How the results depend on the processing

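Of 148 recomputed single values, 121 kept direction and side of the threshold. Of 18 recomputed counts of called windows in the comparisons with calls, 4 stayed within 1.5 times the main count, and those against naked DNA were 0 in all 8; the cause of the other changes was not tested. Solvent libraries held few desert sites, which limits their precision. The difference between MGMT and WT in the desert-to-gene ratio, near 0, turned sign under TMZ with no minimum score (0.10), with the 3 intervals of 1 Mb or more (0.0214) and with windows matched on C share (0.00949). Under solvent it turned with intervals of 1 Mb or more (0.10), matched windows (0.0147) and without set 1 (0.0144). The differences of TMZ from naked DNA turned with matched windows (-0.0218 in WT, -0.0123 in MGMT) and with background subtraction (-0.0238 and -0.0983). The last value holds a library with negative densities after subtraction and cannot be read. Both differences were 0.09 without naked DNA replicate 1.

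With the 3 intervals of 1 Mb or more, the comparison of 3 against 1 additions gave -0.13 and missed the threshold. The share at G in MGMT minus WT gave -6.87 points there and passed it. Replicate numbers were taken to share only a number: same-numbered libraries of the lines correlated over 1 Mb bins at -0.05 to 0.50, above 0.1 in 7 of 12 pairs and, under TMZ alone, in 5 of 6. With the replicate number as a block, 3 against 1 additions (-0.16) missed the threshold (adjusted p = 0.0833, exact sign flips) and the share at G (-6.35 points) reached it (adjusted p = 0.05, exact sign flips), as it did with libraries exchanged within sharing sets (-6.35 points). Same-numbered libraries of 1 and 3 additions correlated at -0.304 to 0.365, above 0.1 in 1 of 6. The block gave 54 called desert windows for TMZ against solvent (14.5% of those tested, against 7.96% of all windows) and 35 for MGMT against WT, 20 higher and 15 lower (9.41% against 20.8%).

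Called desert windows for TMZ against solvent were 3 with limma-trend (0.806% of those tested, against 0.766% of all windows), 44 with no filter (11.1% against 4.82%) and 33 with only the groups compared (8.87% against 5.45%). For MGMT against WT they were 4 with total G sites as library size (1.08% against 3.75%), 0 with limma-trend (0% of all windows), 1 with no filter (0.251% against 1.53%), 0 with no minimum score (0.284% of all windows) and 44 with only the groups compared (11.8% against 21.4%).

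Leaving out a replicate or the library that stood apart gave -0.35 to -0.25 for TMZ minus solvent, 0.30 to 0.45 for solvent minus naked DNA, -0.0255 to 0.0228 for MGMT minus WT under TMZ, -0.0252 to 0.0622 under solvent, -0.232 to -0.0845 for 3 minus 1 additions and -0.24 to -0.19 for non-G sites. It gave 23.3 to 30.5 points for the share at G, -3.06 to -1.93 for its gap to gene bodies, 0 to 16 called windows for TMZ against solvent (0.00748% to 2.61% of all windows) and 0 to 3 for MGMT against WT (0.0673% to 3.3%).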
